A study of Schmidtea mediterranea with 58 samples.

Results

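*smedwi-1*, the planarian *piwi* gene of neoblasts, was followed as transcript dd_Smed_v6_659_0_1 of the deposited count table, chosen by its identifier as the neoblast *piwi* gene. It is 1 of 28742 transcripts in the table and was read in all 58 libraries. At 48 h post amputation (hpa) the *smedwi-1* level was lower in *equinox* RNAi wounds, at 708 ± 114 CPM (counts relative to library totals adjusted by TMM factors), against 1050.7 ± 129.8 CPM in control wounds (SD, n = 5 and 4). No difference between the treatments passed the test at 0, 3, 6, 16 or 24 hpa. In *equinox* RNAi wounds no change from 0 hpa passed the test at any time, whereas in control wounds the level rose between 0 and 48 hpa. A direct test of that difference in change at 48 hpa missed the threshold (-0.50 on the log2 scale, adjusted p = 0.0577 in edgeR). The libraries labelled *equinox* RNAi at 0 hpa, on which it rests, did not have a uniformly low *equinox* level.

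PIWI proteins are Argonaute-family proteins that bind small piRNAs, and in animal germ cells and stem cells they silence transposons. In planarians the neoblasts, a population of dividing cells that includes pluripotent stem cells, supply every new tissue, and *smedwi-1* RNA is their customary marker. After an injury that removes tissue, neoblasts divide and gather near the wound before a blastema forms, and *smedwi-1* RNA can persist for a time in their post-mitotic progeny.

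The *equinox* RNAi libraries came from asexual *Schmidtea mediterranea* of the clonal strain CIW4 fed double-stranded RNA (dsRNA) of *equinox*, a gene for a predicted secreted protein of the wound epidermis. The control libraries came from the same strain given dsRNA of the *C. elegans* gene *unc-22* in the same way. Anterior-facing wounds of tail fragments were cut out for RNA right after amputation (0 hpa) and at 3, 6, 16 and 24 hpa, with 48 hpa as the last time, and 5 wounds were pooled for a replicate. There were 29 libraries for each treatment, with 5 at each time except 4 for *equinox* RNAi at 0 hpa and 4 for control at 48 hpa. Per the labels animals were fed 8 times and cut 7 days later, whereas the methods state 3 days. RNAi by feeding reaches the whole animal, so neither treatment was limited to the wound or to a cell type. In bulk RNA of a wound, fewer neoblasts and less *smedwi-1* RNA per neoblast cannot be told apart.

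Total counts per library ranged from 1312330 to 38053378, and the *smedwi-1* count from 1036 to 33003. Counting error alone was therefore 0.550% to 3.11% of the *smedwi-1* value, whereas the coefficient of variation between replicates was 3.55% to 16.1%. The targeted gene, *equinox* (dd_Smed_v6_20318_0_1), was at 0.753 to 2.03 CPM in *equinox* RNAi libraries at 48 hpa, against 5.03 to 8.10 CPM in control. It was also lower in every *equinox* RNAi library at 16 hpa (1.89 to 3.63 CPM, against 13.4 to 19.5 CPM in control) and at 24 hpa (0.997 to 4.15 CPM, against 7.57 to 14.2 CPM in control). At 6 hpa the ranges met, with 1.59 to 4.04 CPM in *equinox* RNAi and 3.18 to 10.2 CPM in control. Some libraries labelled *equinox* RNAi went against their label at the earlier times. The ranges were 2.85 to 39.3 CPM at 0 hpa against 4.31 to 7.58 CPM in control, and 1.77 to 33.4 CPM at 3 hpa against 4.14 to 6.10 CPM in control. Replicates 1 and 2 at 0 hpa and replicates 1, 2, 3 and 5 at 3 hpa lay above every control library. Replicate 5 at 0 hpa lay within the control range. Replicate 3 at 0 hpa and replicate 4 at 3 hpa lay below it. Every *smedwi-1* value set against 0 hpa in the *equinox* RNAi arm therefore rests on libraries labelled *equinox* RNAi in which the target was not uniformly low. Replicate 1 of *equinox* RNAi at 3, 6, 16, 24 and 48 hpa carries an earlier time in its time field than in its title, and these 5 libraries were placed by title.

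Right after amputation *smedwi-1* was at 624, 777, 741 and 636 CPM in replicates 1, 2, 3 and 5 labelled *equinox* RNAi, against 714, 755, 692, 744 and 744 CPM in control replicates 1 to 5. The control range lay inside the range of the libraries labelled *equinox* RNAi. At 3 hpa the libraries labelled *equinox* RNAi had 779, 805, 642, 641 and 679 CPM, against 778, 749.7, 702, 752.8 and 797 CPM in control. At 6 hpa *equinox* RNAi wounds had 576, 621, 716, 737 and 706 CPM, against 748, 699, 730.2, 755 and 631 CPM in control wounds. The groups overlapped at each of these times, and the 3 lowest libraries at 3 hpa and the 2 lowest at 6 hpa were all *equinox* RNAi.

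At 16 hpa *equinox* RNAi wounds had 752, 828, 849, 858 and 589.6 CPM, against 783, 758, 788, 824 and 580.4 CPM in control wounds. The lowest library was replicate 5 in both treatments. At 24 hpa *equinox* RNAi wounds had 687, 889, 733, 702 and 978 CPM, against 673, 885, 844, 870.0 and 733 CPM in control wounds. The groups overlapped, and the highest library was replicate 5 of *equinox* RNAi.

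At 48 hpa *equinox* RNAi wounds had 667, 702, 598, 675 and 901 CPM, against 1174, 1152, 945 and 932 CPM in control wounds. The groups did not overlap. Replicate 5 of *equinox* RNAi stood above the other 4, and 30.5 CPM separated it from the lowest control library.

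**Figure D1:**
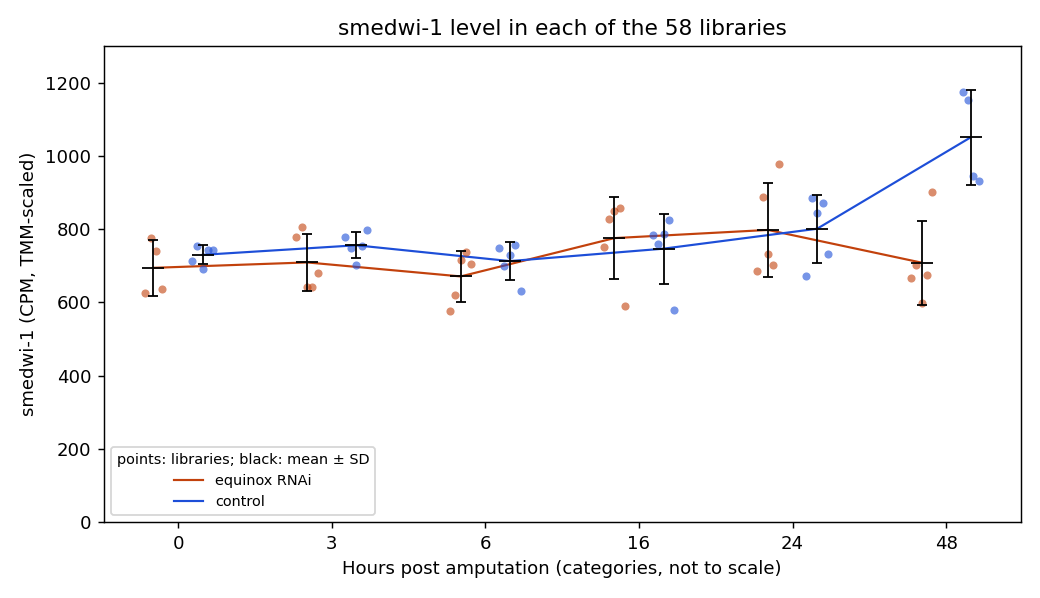
*smedwi-1* in CPM scaled by TMM factors (y axis) at each time after amputation (x axis, evenly spaced categories) for *equinox* RNAi (left of each pair) and control (right). Points are libraries, black bars are the mean ± SD of 4 or 5 libraries, and the 4 control libraries at 48 hpa, at 932 to 1174 CPM, lie above the 5 *equinox* RNAi libraries of that time, at 598 to 901 CPM.

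The first question was whether *equinox* RNAi altered the *smedwi-1* level at a wound of a given age. At 48 hpa the log2 fold change of *equinox* RNAi over control was -0.57 (SE 0.114, 95% interval -0.80 to -0.34), a level 0.674 times that of control, with an adjusted p of 2.05e-04 in edgeR's quasi-likelihood test. An exact two-sided permutation test of log2 CPM gave p = 0.0159, where the smallest p that 5 against 4 libraries allow is 0.00794. Of all 20129 transcripts tested, 17.5% passed the same threshold at 48 hpa, and 8.78% had a lower fold change than *smedwi-1*. The change was called under each of the 10 other settings of the processing, with values from -0.66 to -0.51, and without each of the 9 libraries in turn, with values from -0.67 to -0.51. Among those settings, the fit with the log2 TMM factor as a covariate (-0.51) was added after the data were seen and is no separate support. With the 5 libraries that carry 2 stated times left out the change was -0.56 (adjusted p = 6.96e-04), and with those placed by their time field it was -0.55 (adjusted p = 0.00125).

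At 0 and 3 hpa the log2 fold changes of libraries labelled *equinox* RNAi over control were -0.072 (95% interval -0.30 to 0.16) and -0.093 (-0.31 to 0.12). For wounds of 6, 16 and 24 hpa the values were -0.087 (-0.30 to 0.13), 0.055 (-0.16 to 0.27) and -0.0059 (-0.22 to 0.21). None passed the test, with adjusted p of at least 0.576 in edgeR and exact permutation p between 0.254 and 0.944. The shares of all transcripts called were 1.42%, 11.3%, 7.66%, 0.606% and 1.25% at 0, 3, 6, 16 and 24 hpa. At 3 hpa the value depended on the setting. It was -0.25 (SE 0.140) when scaled by total counts only and -0.18 (SE 0.110) with the 5 libraries placed by their time field. With the log2 TMM factor as a covariate, a setting added after the data were seen, it was 0.19 (SE 0.0794). None of these values was called.

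**Figure D2:**
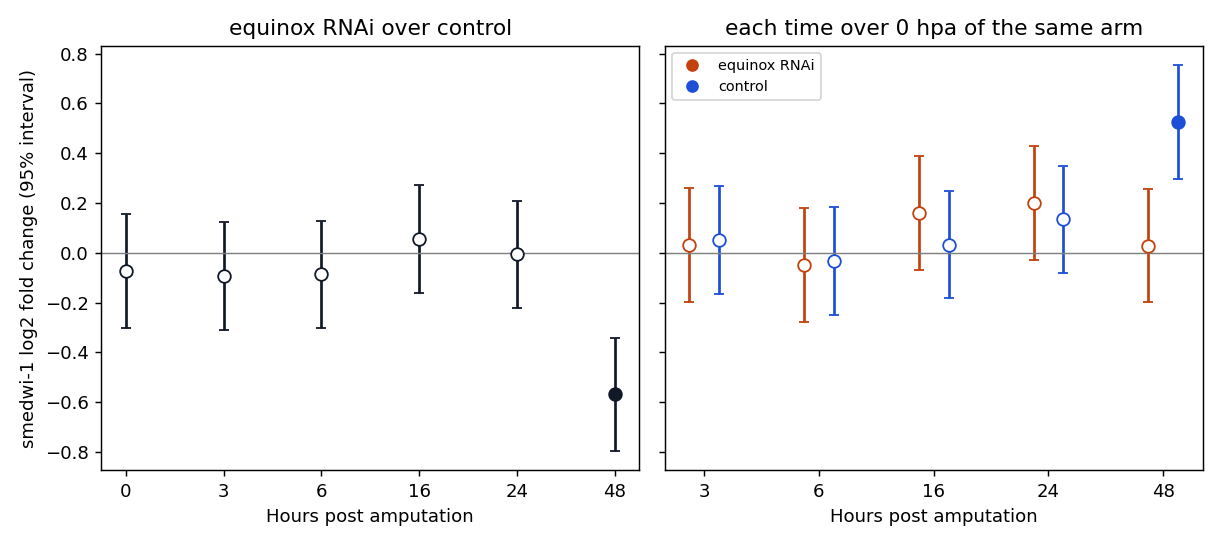
log2 fold change of *smedwi-1* (y axis, both panels) by hours post amputation (x axis), as *equinox* RNAi over control (left) and as each time over 0 hpa within *equinox* RNAi and within control (right). Circles are edgeR estimates with 95% intervals, filled where the adjusted p is under 0.05, which holds for *equinox* RNAi over control at 48 hpa (-0.57) and for control at 48 over 0 hpa (0.53).

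The second question was how the level moved with time within each treatment. The means in *equinox* RNAi were 694 ± 75.8, 709 ± 77.5, 671 ± 69.3, 776 ± 112, 798 ± 129 and 708 ± 114 CPM in the order 0, 3, 6, 16, 24, 48 hpa (SD, n = 4 at 0 hpa and 5 otherwise), the first 2 from libraries labelled *equinox* RNAi. The means in control were 729.8 ± 25.9, 756 ± 35.6, 713 ± 50.8, 747 ± 95.9, 801 ± 93.0 and 1050.7 ± 129.8 CPM at the same times (SD, n = 4 at 48 hpa and 5 otherwise). Ordered by mean, control at 48 hpa stood first, control and *equinox* RNAi at 24 hpa came next, and *equinox* RNAi at 6 hpa was lowest. The gap between the first and the next was 249.6 CPM. The means of the other 11 groups together spanned 130.2 CPM, and the largest SD between libraries among them was 129 CPM. The order of these 11 is a description and was not tested as a whole.

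In *equinox* RNAi wounds *smedwi-1* at 48 hpa stood at a log2 fold change of 0.029 over 0 hpa (SE 0.114, 95% interval -0.20 to 0.26, adjusted p = 0.929 in edgeR). The changes from 0 hpa were 0.031, -0.049, 0.16 and 0.20 at 3, 6, 16 and 24 hpa, with adjusted p of at least 0.387. Of all transcripts, 1.37%, 5.42%, 12.2%, 5.96% and 6.71% were called against 0 hpa at 3, 6, 16, 24 and 48 hpa in this arm. These comparisons share the 4 libraries labelled *equinox* RNAi at 0 hpa.

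In control wounds *smedwi-1* rose at 48 hpa over 0 hpa by a log2 fold change of 0.53 (SE 0.114, 95% interval 0.30 to 0.75), a level 1.44 times that of 0 hpa, with an adjusted p of 2.46e-04 in edgeR. Its 4 libraries at 48 hpa lay above all 5 at 0 hpa, which ranged from 692 to 755 CPM, and the exact permutation p was 0.00794, the smallest possible. The changes at 3, 6, 16 and 24 hpa were 0.051, -0.034, 0.033 and 0.13, with adjusted p of at least 0.347. Many other transcripts passed the test at those times, with 3.17%, 8.93%, 18.5% and 33% called at 3, 6, 16 and 24 hpa and 29.5% at 48 hpa. *smedwi-1* was thus not among the 6646 transcripts called at 24 hpa.

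Between 24 and 48 hpa the log2 change was -0.17 in *equinox* RNAi (SE 0.108, adjusted p = 0.511, 2.93% of transcripts called) and 0.39 in control (SE 0.114, adjusted p = 0.0283, 5.63% called). Between 16 and 24 hpa it was 0.041 in *equinox* RNAi (adjusted p = 0.946, 2.2% called) and 0.10 in control (adjusted p = 0.604, 3.9% called). The rise in control from 24 to 48 hpa was the least secure of the *smedwi-1* calls. It was not called without control replicate 1 at 24 hpa (adjusted p = 0.101), replicate 5 at 24 hpa (0.0707), replicate 1 at 48 hpa (0.142) or replicate 2 at 48 hpa (0.116), nor in a fit of only those 2 groups (0.112). The log2 change lay between 0.33 and 0.45 over the 9 libraries left out in turn.

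**Figure D3:**
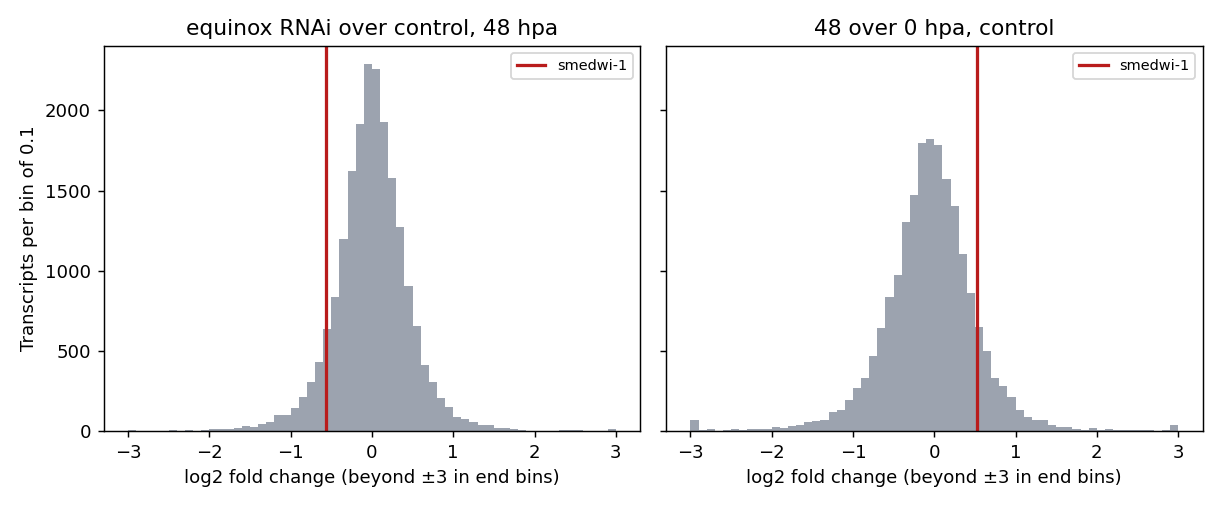
Number of transcripts (y axis) per bin of log2 fold change (x axis, bins of 0.1, values beyond 3 placed in the end bins) over 20129 transcripts, for *equinox* RNAi over control at 48 hpa (left) and for 48 over 0 hpa in control (right). The red line marks *smedwi-1*, at -0.57 with 8.78% of transcripts below it on the left, and at 0.53 with 88.1% below it on the right.

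The third question was whether the change with time itself differed between the treatments. At 48 hpa the interaction of RNAi and time for *smedwi-1* was -0.50 on the log2 scale (SE 0.161, 95% interval -0.82 to -0.17), with an unadjusted p of 0.00321 and an adjusted p of 0.0577 in edgeR. It missed the threshold that 5.08% of all transcripts passed, and 10.1% of transcripts had a lower value. DESeq2 gave -0.50 with an adjusted p of 0.0294. In edgeR the interaction was called without *equinox* RNAi replicate 5 at 48 hpa (-0.60, adjusted p = 0.0129), without control replicate 3 (-0.55, 0.0465) and without control replicate 4 (-0.55, 0.0410). At 3, 6, 16 and 24 hpa the interaction was -0.021, -0.015, 0.13 and 0.066 with adjusted p of at least 0.883, and the shares of transcripts called were 0.00497%, 0.0894%, 0.0248% and 0.233%. Each interaction uses the 4 libraries labelled *equinox* RNAi at 0 hpa.

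The spread of *smedwi-1* between replicates was moderate for its level. Its SD of log2 CPM within groups was 0.169, against a median of 0.192 for the 200 transcripts nearest in level, of which 39% had a smaller SD. By the coefficient of variation of CPM, replicates were widest in *equinox* RNAi at 24 hpa (16.1%) and 48 hpa (16.1%) and tightest in control at 0 hpa (3.55%) and 3 hpa (4.71%).

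Within groups *smedwi-1* moved with the composition of the library. Its log2 CPM correlated with the TMM normalization factor at r = 0.76 after group means were removed (58 libraries, a description, since both come from the same counts). The r with the log2 of the total count was -0.12 on the same footing. At 48 hpa the factors were 0.969 to 1.0996 in *equinox* RNAi and 0.946 to 1.12 in control, so the treatments overlapped. A fit with the log2 factor as a covariate, added after the data were seen, gave -0.51 for *equinox* RNAi over control at 48 hpa (SE 0.0743, adjusted p = 3.04e-07) and -0.46 for the interaction at 48 hpa (adjusted p = 0.00142). In that fit *smedwi-1* was also called higher at 24 than at 0 hpa, by 0.25 in *equinox* RNAi (adjusted p = 0.0193) and by 0.24 in control (0.00776), and lower at 48 than at 24 hpa in *equinox* RNAi by a log2 change of -0.25 (0.00948). Those 3 comparisons did not pass without the covariate. The factor comes from the same counts and followed *smedwi-1* within groups, so a smaller SE was favoured beforehand. The p-values of that fit are therefore no separate support. The rise in control from 24 to 48 hpa was 0.22 with it (adjusted p = 0.0418), against 0.39 without.

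Transcripts with the profile most like *smedwi-1* were sought by Pearson r of log2 CPM over the 58 libraries, among 9513 other transcripts with a mean of at least 10 CPM. The median r was -0.056, 23 transcripts exceeded 0.8 and 2 exceeded 0.9. The 5 highest were dd_Smed_v6_4878_0_1 (r = 0.90), dd_Smed_v6_4889_0_1 (0.90), dd_Smed_v6_5520_0_1 (0.90), dd_Smed_v6_6641_0_1 (0.88) and dd_Smed_v6_7837_0_1 (0.87), none of which has a name in the annotation used here. They had within-group r of 0.88 to 0.91, against a median of -0.16 over the 9513, so they also followed *smedwi-1* from library to library at a fixed treatment and time. Within groups *smedwi-1* itself followed the TMM factor (r = 0.76), and the part of library composition in this likeness was not tested. At 48 hpa dd_Smed_v6_5520_0_1 was at 24.5 ± 6.78 CPM in *equinox* RNAi wounds, against 51.8 ± 15.4 CPM in control wounds (SD, n = 5 and 4). For dd_Smed_v6_4878_0_1 the levels were 103.1 ± 22.3 CPM in *equinox* RNAi and 173 ± 40.2 CPM in control. All 5 were called lower in *equinox* RNAi at 48 hpa, by log2 changes of -0.58 to -1.09, which the choice by likeness over these same libraries favours. In the same way, of the 100 transcripts of highest r, *equinox* RNAi at 48 hpa had 95 called lower and 0 called higher, against 9.46% called lower and 8.07% called higher among all transcripts. In control at 48 over 0 hpa, 69 of the 100 were called higher and 0 lower, against 14.7% and 14.8%.

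Of the 387 transcripts in that comparison with a human blastx name, the 10 most like *smedwi-1* were a mixed set by the known roles of the human proteins. They included CCDC63 (dd_Smed_v6_1089_0_1, r = 0.85), a coiled-coil protein of sperm flagella, L3HYPDH (dd_Smed_v6_10042_0_1, 0.84), a hydroxyproline dehydratase, and NKX2-6 (dd_Smed_v6_10330_0_1, 0.79), a homeobox transcription factor. CROCC (dd_Smed_v6_10619_0_1, 0.77), the ciliary rootlet protein, averaged 10.3 ± 1.53 CPM in *equinox* RNAi wounds at 48 hpa, against 20.2 ± 5.31 CPM in control wounds (SD, n = 5 and 4). COL2A1 (dd_Smed_v6_10273_0_1, 0.73), a fibrillar collagen, was at 32.5 ± 1.36 CPM in *equinox* RNAi and 40.5 ± 4.23 CPM in control. Also among the 10 were AL096814.1 (dd_Smed_v6_10291_0_1, 0.79), ECM2 (dd_Smed_v6_10335_0_1, 0.71), AKR1B10 (dd_Smed_v6_10377_0_1, 0.68), an aldo-keto reductase, and MFSD8 (dd_Smed_v6_10577_0_1, 0.67), a lysosomal membrane protein. All 10 were called lower in *equinox* RNAi at 48 hpa, by log2 changes of -0.30 to -0.97, against 9.46% of all transcripts, and here too the choice by likeness over these same libraries favours that outcome.

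At the other end stood 5 named transcripts of negative r. NLRC3 (dd_Smed_v6_1021_0_1, r = -0.78), an NLR-family protein, was at 239 ± 36.1 CPM in *equinox* RNAi wounds at 48 hpa, against 167 ± 32.1 CPM in control wounds (SD, n = 5 and 4), and was called higher (log2 change 0.52, adjusted p = 0.00808 in edgeR). PPP3CA (dd_Smed_v6_10318_0_1, -0.66), the catalytic subunit of calcineurin, was at 17.3 ± 2.88 CPM in *equinox* RNAi and 7.12 ± 1.09 CPM in control (log2 change 1.29, adjusted p = 3.00e-09 in edgeR). NUDT14 (dd_Smed_v6_1070_0_1, -0.74), UNC5C (dd_Smed_v6_1060_0_1, -0.67), a netrin receptor, and NUCB1 (dd_Smed_v6_1053_0_1, -0.66) did not pass at 48 hpa, with log2 changes of 0.54, 0.20 and 0.26. Of all transcripts, 8.07% were called higher in *equinox* RNAi at 48 hpa. The choice by low r over these same libraries favours a higher level there, so the p-values above are no separate support.

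**Figure D4:**
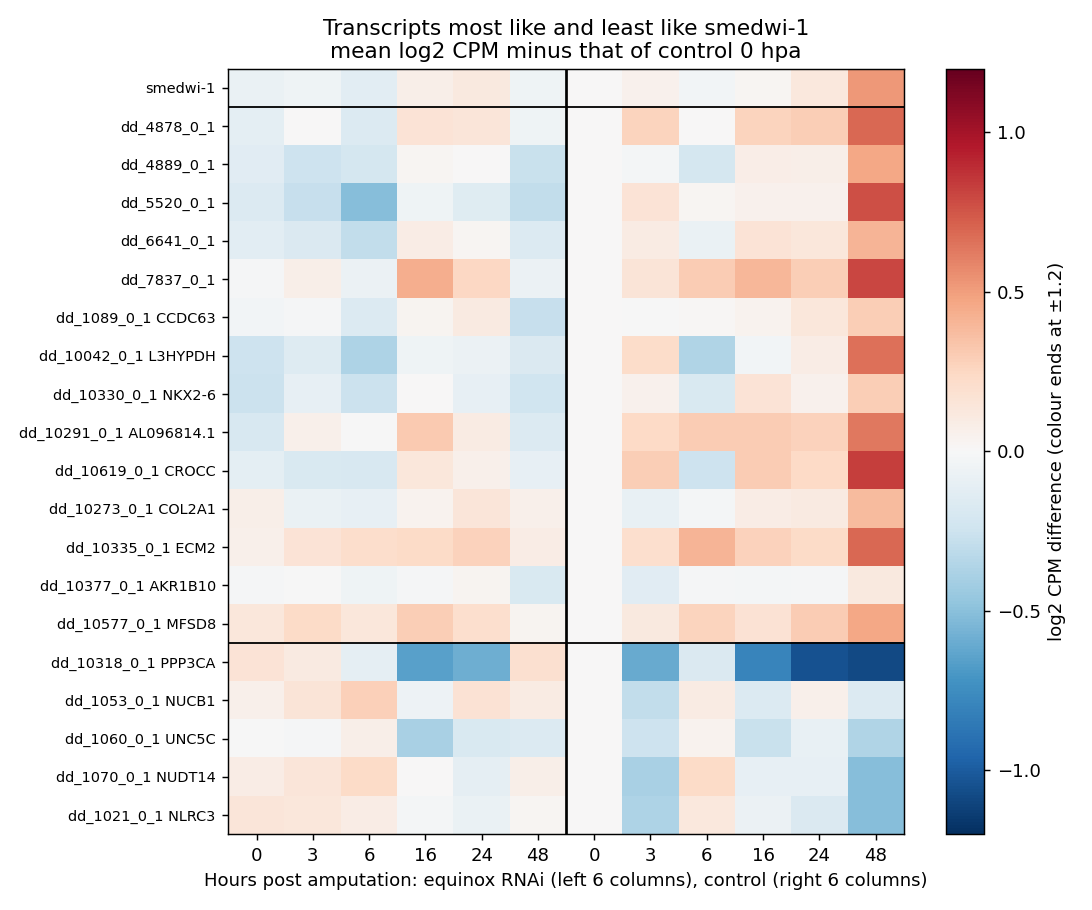
Mean log2 CPM of each group minus that of control at 0 hpa (colour, ends at 1.2) for *smedwi-1* (top row), the 5 transcripts of highest r, 9 of the 10 named transcripts of highest r and the 5 named transcripts of lowest r (bottom rows), in *equinox* RNAi at 0 to 48 hpa (left) and control at 0 to 48 hpa (right). The upper rows are darkest red in control at 48 hpa, where *smedwi-1* was at 0.53 over 0 hpa in the fit, and PPP3CA in the lower rows is darkest blue there.

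Neoblasts are the dividing cells of the animal, so 11 transcripts named for DNA replication, nucleotide synthesis and mitosis were set beside *smedwi-1*. Human names cover only part of the transcripts, so this list is partial and its counts do not measure neoblast division as a whole. Of the 10 that passed the filter on low counts, *equinox* RNAi at 48 hpa had 0 higher and 1 lower, with a median log2 change of -0.032 against 0.00062 over all transcripts, of which 8.07% were called higher and 9.46% lower. The transcript called was CEP44 (dd_Smed_v6_10760_0_1), a centrosomal protein, at 14.0 ± 2.83 CPM in *equinox* RNAi and 19.7 ± 6.73 CPM in control (SD, n = 5 and 4). Between 48 and 0 hpa 0 of the 10 were called in *equinox* RNAi, where 6.71% of all transcripts were called. In control 2 were called higher and 0 lower, against 14.7% and 14.8% of all transcripts. The median log2 change of the 10 was nonetheless 0.167 in *equinox* RNAi and 0.174 in control. For the interaction at 48 hpa 0 of the 10 were called, against 5.08% of all transcripts. TYMS (dd_Smed_v6_10794_0_1), thymidylate synthase, had a log2 change of 0.11 and RFC5 (dd_Smed_v6_10738_0_1), a clamp loader subunit, of 0.059 in *equinox* RNAi over control at 48 hpa, and neither passed the test. TOPBP1 (dd_Smed_v6_10166_0_2) at 0.40, BRIP1 (dd_Smed_v6_10902_0_1) at 0.081 and SPICE1 (dd_Smed_v6_10945_0_1) at 0.00049 did not pass either. On the lower side, PPAT (dd_Smed_v6_1067_0_1) was at -0.41, NEK7 (dd_Smed_v6_10454_0_1) at -0.24, ANKLE2 (dd_Smed_v6_10878_0_1) at -0.077 and MAPRE1 (dd_Smed_v6_10690_0_1) at -0.065, and none passed. The summed level of the 10 was 164 to 176 CPM in *equinox* RNAi and 173 to 188 CPM in control at 48 hpa. At 0 hpa it was 152 to 159 CPM in libraries labelled *equinox* RNAi and 148 to 166 CPM in control.

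Markers of other tissues of the wound were examined at the same time point, at which 8.07% of all transcripts were called higher and 9.46% lower. Of 12 contractile and muscle transcripts, *equinox* RNAi had 0 higher and 3 lower (median log2 change -0.022), among them MYL1 (dd_Smed_v6_10489_0_1), a myosin light chain, at -0.49 and PDLIM3 (dd_Smed_v6_10105_0_1) at -0.50. Of 13 transcripts of motile cilia, IQCG (dd_Smed_v6_10942_0_1) was called higher at 1.39 and CROCC (dd_Smed_v6_10619_0_1) lower at -0.97 (median -0.061). Another transcript named CROCC (dd_Smed_v6_10266_0_1) was at 0.20 and did not pass. Of 14 transcripts of synapse and neurotransmission, 3 were called higher and 0 lower (median 0.11). They were 2 transcripts named CHRNA7 (dd_Smed_v6_10112_0_1 and dd_Smed_v6_10315_0_1), an acetylcholine receptor subunit, at 0.49 and 0.43, and the glycine transporter SLC6A5 (dd_Smed_v6_10587_0_1) at 0.55. Another transcript named CHRNA7 (dd_Smed_v6_10209_0_1) was at 0.034 and another named SLC6A5 (dd_Smed_v6_10391_0_1) at 0.15, and neither passed. Summed levels overlapped between the treatments at 48 hpa for muscle (648 to 835 CPM in *equinox* RNAi, 635 to 800 CPM in control), for cilia (212 to 240.2 CPM in *equinox* RNAi, 218 to 265 CPM in control) and for synapse (343 to 424 CPM in *equinox* RNAi, 313 to 371 CPM in control).

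The 8 mitochondrial transcripts summed to 3512 to 4051 CPM in *equinox* RNAi at 48 hpa, against 4103 to 6843 CPM in control, with no overlap. Of the 8, *equinox* RNAi had 0 higher and 3 lower, and 5 did not pass (median log2 change -0.56), against 8.07% of all transcripts called higher and 9.46% lower. In control at 48 over 0 hpa 7 of the 8 were called higher, with a median of 0.86, against 14.7% of all transcripts. Over the 58 libraries the mitochondrial share and *smedwi-1* had r = 0.40, and r = -0.033 after group means were removed. The part of mitochondrial RNA in the *smedwi-1* result was not tested. The signalling gene *bmp4* (dd_Smed_v6_17402_0_1) was at 2.71 ± 0.784 CPM in *equinox* RNAi and 5.13 ± 1.27 CPM in control at 48 hpa (SD, n = 5 and 4), a log2 change of -0.89 with an adjusted p of 5.01e-04 in edgeR. *teneurin* (dd_Smed_v6_5439_0_1) was at 301 ± 60.04 CPM in *equinox* RNAi and 253 ± 33.0 CPM in control and did not pass.

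**Figure D5:**
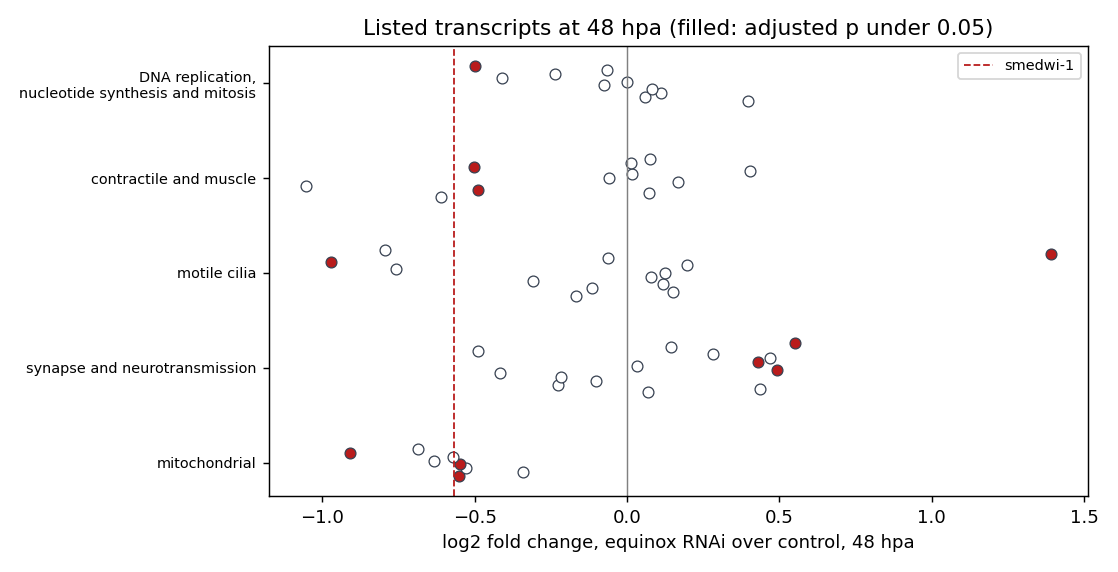
log2 fold change of *equinox* RNAi over control at 48 hpa (x axis) for the transcripts of each list that passed the filter on low counts (y axis, lists; 11 of the 12 muscle transcripts are drawn), filled where the adjusted p is under 0.05. The dashed line is *smedwi-1* at -0.57, and the mitochondrial transcripts, with a median of -0.56, all lie left of 0.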

How the data were processed

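mRNA libraries were sequenced as reads of 50 bp. The authors aligned them with bowtie to the planarian transcriptome dd_Smed_v6, keeping best alignments, took read numbers from bedtools and added up the isotigs of a transcript. The deposited values are raw counts for 28742 transcripts in 58 libraries, and 0 columns were left unmapped. The submitters' processing notes list cutadapt 1.8, Bowtie 1.2, SAMtools 1.6 and DESeq. Whether reads could match both *smedwi-1* and related *piwi* transcripts was not examined, as no sequence was used.

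From the counts, edgeR 4.0.16 in R 4.3.3 fitted 12 groups of treatment and time together (TMM factors, robust quasi-likelihood test, filterByExpr with a minimum count of 10, which kept 20129 transcripts). Adjusted p is that of Benjamini-Hochberg over these transcripts, with a threshold of 0.05. CPM are scaled by TMM factors, and log2 CPM use a prior count of 2. Exact two-sided permutation tests compared log2 CPM of *smedwi-1*. Confidence intervals are at 95%. The labels do not say whether replicates came from separate animals, so p-values measure the spread between these samples. The lowest chi-square per degree of freedom between replicates was 2.59, so each library counts as 1 replicate. The test was checked on simulated counts.

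*smedwi-1* and the gene lists were chosen with earlier results of these data known. Other transcripts were named by rule: the 5 of highest r with *smedwi-1*, the 10 of highest and 5 of lowest r among those with a human blastx name, the targeted gene, and listed transcripts called between treatments at 48 hpa. *bmp4*, *teneurin* and the other tested transcripts for DNA replication, nucleotide synthesis and mitosis are given in addition as listed transcripts. Human names cover only part of the transcripts, and 2 transcripts that the rule names are not reported here. Alternatives were RLE factors, total counts only, no filter, DESeq2 1.42.0, a replicate block, a fit of the compared groups alone, removal or moving of the 5 libraries with 2 stated times, and removal of each library in turn. The log2 TMM factor as a covariate was a further alternative, added after the data were seen. In 1 of 20 comparisons, *equinox* RNAi at 16 against 0 hpa, every pair of same-numbered libraries had deviations correlated above 0.1 (0.41 to 0.69 over 9514 transcripts).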

Additional observations from a re-analysis of the deposited data

Results flagged for a closer look

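In control wounds at 16 hpa, replicate 5 had 580.4 CPM of *smedwi-1*, far below the other 4 libraries of its group at 758 to 824 CPM. Its distance to the nearest of them was 0.73 of the range of the group, beyond the limit of 0.71 for 5 samples, which chance passes in about 1 of 20 groups. Of 12 groups 1 passed its limit. Its TMM factor, 0.910, was the lowest of the group, and replicate 5 of *equinox* RNAi at 16 hpa was also the lowest of its group (589.6 CPM, factor 0.932). Without the control library the log2 change of *equinox* RNAi over control at 16 hpa was -0.024, against 0.055 with it, and neither was called.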

How the results depend on the processing

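The lower *smedwi-1* level of *equinox* RNAi wounds at 48 hpa and its rise in control from 0 to 48 hpa were called under each of the 10 alternatives and without each library in turn. Among the 10, the fit with the normalization factor as covariate was added after the data were seen and is no separate support. The rise in control from 24 to 48 hpa was not called in a fit of those groups alone (0.39) or with a replicate block in it (0.36), was 0.22 and still called with the normalization factor as covariate, and lay between 0.33 and 0.45 without each library. The interaction at 48 hpa was called by DESeq2 (-0.50) and with the normalization factor as covariate (-0.46), a setting chosen after seeing the data, and lay between -0.60 and -0.44 without each library. With that covariate 24 over 0 hpa was called in *equinox* RNAi (0.25) and control (0.24), and 48 over 24 hpa in *equinox* RNAi (-0.25).

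Other sign changes concern comparisons that were called in no setting, and the cause was not tested. With the covariate *equinox* RNAi over control was 0.19 at 3 hpa and 0.014 at 6 hpa, control over 0 hpa was -0.13 at 3 hpa and 0.048 at 6 hpa, *equinox* RNAi over 0 hpa was 0.11 at 6 hpa and -0.00092 at 48 hpa, and the interaction was 0.24 at 3 hpa and 0.059 at 6 hpa. With total counts only, *equinox* RNAi over control at 24 hpa was 0.0096 and *equinox* RNAi at 3 over 0 hpa was -0.011. Leaving out the 5 libraries with 2 stated times, these were 0.025 and -0.0073, *equinox* RNAi at 6 over 0 hpa was 0.0010 and the interaction at 6 hpa was 0.031. With those 5 placed by their time field, *equinox* RNAi at 3 over 0 hpa was -0.089 and the interaction at 6 hpa 0.024, and without a filter that interaction was 0.0052.

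Without each library in turn, *equinox* RNAi over control lay between -0.024 and 0.14 at 16 hpa and between -0.090 and 0.043 at 24 hpa. Control over 0 hpa lay between -0.056 and 0.0067 at 6 hpa and between -0.0052 and 0.11 at 16 hpa. *equinox* RNAi over 0 hpa lay between -0.019 and 0.088 at 3 hpa, between -0.097 and 0.0084 at 6 hpa and between -0.072 and 0.086 at 48 hpa, and 24 over 16 hpa between -0.043 and 0.090. The interaction lay between -0.070 and 0.039 at 3 hpa, between -0.062 and 0.045 at 6 hpa and between -0.018 and 0.13 at 24 hpa.

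Transcripts called for *equinox* RNAi against control at 48 hpa numbered 3528, but 1683 in a fit of those groups alone, 1506 with a replicate block added to it, and 2126 (without control replicate 1 at 48 hpa) to 3981 without each library. For 48 over 24 hpa in control they numbered 1133, but 2862 with the covariate, 536 in a fit of those groups alone, 219 with the block added to it, and 577 (without control replicate 1 at 48 hpa) to 1271 without each library (706 without control replicate 2 at 48 hpa). For the interaction at 48 hpa they numbered 1022, but 2141 with the covariate, 837 in a fit of those groups alone, 513 with the block added to it and 1172 with the block in the fit of all groups. With a replicate block in the fit of all groups, *smedwi-1* at 48 hpa was -0.56 in *equinox* RNAi over control, and adding the block changed no call of *smedwi-1*, either in the fit of all groups or in that of the compared groups alone. Of the 5 transcripts of highest r, 5 were shared with a prior count of 0.5, 3 with r over control libraries only and 1 with r of deviations from group means.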
